A study of Mus musculus with 2 samples.

Results

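A set of 34 genes of the mitotic spindle and of cytokinesis were followed through cell cycle position, cell class and genotype. They are the rows whose symbol is one of 34 listed kinesins, spindle proteins, cytokinesis proteins and mitotic kinases, out of 27998 gene rows in the files, and all 34 were found. The cells came from peripheral retina of mice at postnatal day 8, dissected from the area in which the α-Cre driver is active. There was 1 single-cell library of α-Cre; Rb f/f; p107-/- retina, called DKO and labelled tumor-prone, and 1 of α-Cre; Rb f/f; p107-/-; Skp2+/- retina, called DKO-Skp2+/- and labelled tumor-resistant. Both groups therefore share the driver, the floxed Rb alleles and the loss of p107, and no library of wild-type retina was analysed here. The number of animals behind each library is not given in the sources used here.

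A dividing cell builds its spindle from microtubules, which kinesin motors slide, cross-link or shorten while other proteins nucleate them and focus them into poles. After the chromosomes separate, the overlapping microtubules between them form the midzone, which places the contractile ring that splits the cell. Most genes for these proteins are silent in resting cells and are transcribed late in the cycle by complexes that bind a promoter element called the CHR, the cell cycle genes homology region. The pocket proteins Rb and p107 restrain cell cycle genes, and Skp2 belongs to the ligase that targets the cell cycle inhibitor p27 for degradation.

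The libraries hold 3′ tags counted as unique molecular identifiers (UMIs), 1 for each captured transcript. After filters, 3515 DKO and 4978 DKO-Skp2+/- cells were kept, with a median of 4861 and 3799 UMIs per cell. The DKO-Skp2+/- library is shallower: 1898 of its kept cells (38.1%) lie below 3420 UMIs, the lowest count of a kept DKO cell. The libraries share 30 barcode sequences. Skp2 stood at 80.6 CPM (a gene's UMIs scaled to counts-per-million of all UMIs of the same cells) in DKO and 56.8 CPM in DKO-Skp2+/-, a ratio of 0.705 (95% interval 0.657 to 0.757). The ratios of Rb1 (0.988) and Rbl1 (1.00), the gene of p107, check nothing about the mutations, since a 3′ tag can lie outside the deleted part. With 1 library per genotype there is no replicate check and no test. Every interval here covers counting error only, treats the UMIs of a cell as independent and leaves out differences between animals and preparations.

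Promoters were read from RefSeq's table for GRCm38.p6, from 250 bases before to 50 after each start site. The table matched 30 of the 34 members in 35 windows. Kif20a, Tpx2, Dlgap5 and Pbk have no entry. The letters TTTGAA or TTCGAA, which CHR elements carry, were found on either strand in 24 of the 30 members (80%), against 21.7% of the 27025 genes of the whole table. Restricted to 50 bases on either side of the start site, a window chosen after seeing the data, 22 members (73.3%) held them, against 6.12% of all genes. CCAAT, the core of the CCAAT box, occurred in 21 members (70%) and in 41.1% of all genes, and both sets of letters in 19 members (63.3%) and in 8.61%. The E2F letter runs TTTCCCGC, TTTGGCGC, TTTCGCGC and TTTGCCGC were searched on both strands as well, and were found in 2 members (6.67%), Kif15 and Kif18a, against 2.61% of all genes. Matches of different sets can overlap or lie side by side. A match is a description of letters, not a bound site.

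The 130 bases before the start site are printed for 5 members in which CHR letters lie close to the start, and for Numa1, which held no match and whose level hardly varied between S, G2 and M position. Each runs 5′ to 3′ in the direction of the gene, with CHR and CCAAT letters of either strand in capitals. In Kif11 the CHR letters begin at base -19 and the CCAAT letters at -45, counted from -1 as the last base before the start, and in Espl1 at -27 and -44. In Kif15 they begin at -19, directly beside E2F letters that begin at -27. Ckap2l has CHR letters at -30 between CCAAT letters at -40 and -14.
Kif11 (chr19:37376252-37376381, plus strand): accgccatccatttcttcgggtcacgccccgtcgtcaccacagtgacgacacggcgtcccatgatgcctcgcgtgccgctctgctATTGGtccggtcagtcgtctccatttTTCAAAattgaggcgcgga
Kif15 (chr9:122950951-122951080, plus strand): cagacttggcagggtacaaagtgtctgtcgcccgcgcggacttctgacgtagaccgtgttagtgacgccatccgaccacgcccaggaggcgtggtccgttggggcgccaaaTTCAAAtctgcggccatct
Kif22 (chr7:127042421-127042550, minus strand): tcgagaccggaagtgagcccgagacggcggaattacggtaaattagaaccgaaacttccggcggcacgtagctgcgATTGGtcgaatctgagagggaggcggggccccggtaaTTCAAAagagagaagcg
Ckap2l (chr2:129297213-129297342, minus strand): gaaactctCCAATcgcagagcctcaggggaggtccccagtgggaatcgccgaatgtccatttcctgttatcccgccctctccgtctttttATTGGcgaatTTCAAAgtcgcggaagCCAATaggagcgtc
Espl1 (chr15:102296163-102296292, plus strand): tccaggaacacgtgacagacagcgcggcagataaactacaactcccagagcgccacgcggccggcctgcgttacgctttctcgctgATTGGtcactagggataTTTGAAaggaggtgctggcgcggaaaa
Numa1 (chr7:101969713-101969842, plus strand): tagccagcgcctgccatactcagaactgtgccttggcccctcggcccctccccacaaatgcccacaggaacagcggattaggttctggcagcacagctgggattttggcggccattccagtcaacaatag

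The Numa1 window belongs to a RefSeq start that lies inside the gene's span in GENCODE M21, so other starts of the gene were not searched. No match says only that these letters are not in this window. Nusap1 and Tacc3 also held none of the searched letters, yet their levels rose with cell cycle position as those of the other members did, as the values by position show.

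Cell cycle position was read from reference genes that are not members: 45 S phase genes such as Mcm5 and Pcna, 13 genes grouped as G2 (such as Top2a and Mki67) and 11 grouped as M (such as Ccnb1 and Cdc20). Every cell was thinned to 2300 UMIs before its reference UMIs were counted. A cell with fewer than 5 of them was called low. The others were placed at S position where S genes outnumbered the rest, and otherwise at M or G2 position by the larger of the 2 sets. These are positions by transcript content, not observed DNA replication or mitoses. Both libraries carry the Rb and p107 alleles, and what these do to the reference genes outside the cycle was not tested. In DKO, 15.0% of cells were low, 50.2% at S, 15.9% at G2 and 18.8% at M position. In DKO-Skp2+/- the shares were 17.9%, 58.1%, 10.1% and 13.8%.

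The members followed this position in both libraries. In DKO their summed level was 257 CPM in low cells, 1581 at S, 4996 at G2 and 6350 at M position. In DKO-Skp2+/- it was 232, 1229, 5693 and 7299 CPM. The sum thus rose 4.02-fold (3.94 to 4.09) from S to M position in DKO and 5.94-fold (5.82 to 6.06) in DKO-Skp2+/-. All 34 members were higher at G2 and at M position than at S position in both libraries. At equal depth the median cell at M position carried 15 member UMIs from 10 different members in DKO, and 16 UMIs from 11 members in DKO-Skp2+/-. The median low cell carried none in either.

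The rise was at least 2-fold from S to M position in 32 of 34 members in DKO, where 3.2% of all 12406 genes with at least 100 UMIs rose as much, and in 33 of 34 in DKO-Skp2+/-, against 4.27% of all genes. Numa1 was the exception in both libraries, at 51.6, 57.5 and 54.4 CPM at S, G2 and M position in DKO and 47.6, 57.9 and 55.8 CPM in DKO-Skp2+/-. In low cells it stood lower, at 36.5 and 33.6 CPM. Numa1 encodes NuMA, which sits in the nucleus through interphase and moves to the spindle poles in mitosis. Pbk, a mitotic kinase also known as TOPK, fell short in DKO alone, with M to S ratios of 1.88 and 2.69.

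**Figure D1:**
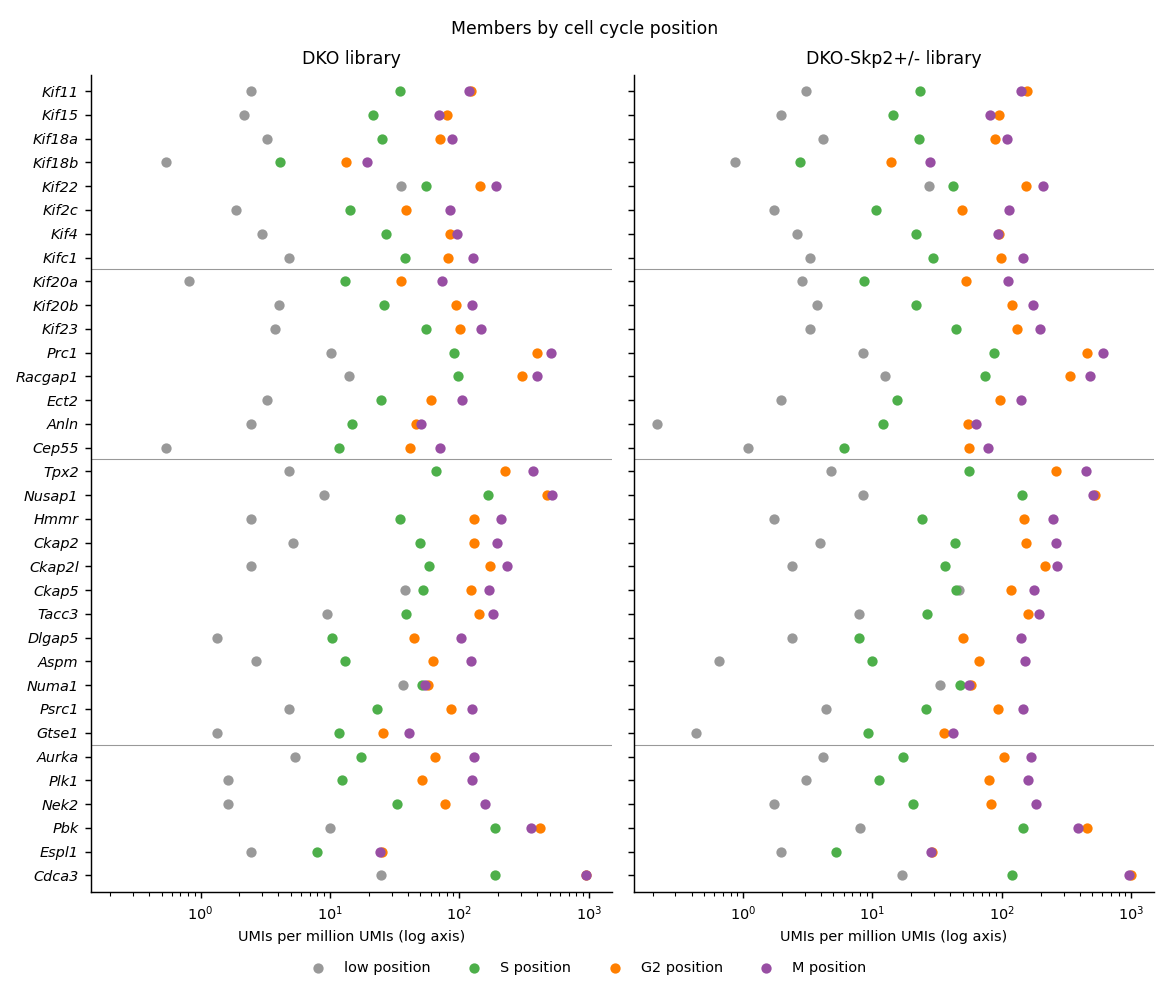
Level of each of the 34 members (rows, by role) in CPM on a log axis, in cells at low, S, G2 and M position of the DKO library (left) and the DKO-Skp2+/- library (right), 1 library each and no error shown. Nearly every member steps up from low to S to G2 or M position, while the points of Numa1 at S, G2 and M position lie close together and Numa1, Ckap5 and Kif22 stand highest in low cells relative to their own M level.

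Kinesins that act on the spindle and chromosomes rose from S to M position by 3.22- to 5.92-fold in DKO and by 4.33- to 10.6-fold in DKO-Skp2+/-. Kif11, the motor that pushes the spindle poles apart, stood at 34.7 CPM at S, 123 at G2 and 120 at M position in DKO, and at 23.4, 156 and 141 CPM in DKO-Skp2+/-. Kif15, which can take over part of that work, was likewise highest at G2 position, with M to G2 ratios of 0.863 and 0.843. Kif2c, a kinesin that shortens microtubules and corrects faulty chromosome attachment, had the largest rise of the group and was still climbing from G2 to M position, from 38.9 to 84.4 CPM in DKO and from 49.1 to 113 CPM in DKO-Skp2+/-. Kif18b, which shortens astral microtubules, was the least deeply counted member, at 8.06 and 7.64 CPM over all cells. The chromosome-bound motor Kif22 stood at 35.4 and 27.2 CPM in low cells and 191 and 209 CPM at M position. Microglia-like cells, used as background, held 2 and 1 UMIs of Kif22 (7.10 and 3.19 CPM).

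The midzone and cytokinesis genes rose by 2.68- to 6.03-fold in DKO and by 4.46- to 13.0-fold in DKO-Skp2+/-, and all 8 were higher at M than at G2 position in both libraries. Prc1, which cross-links the overlapping midzone microtubules, went from 91.1 CPM at S to 508 CPM at M position in DKO and from 87.7 to 604 CPM in DKO-Skp2+/-. Kif20a, the motor that carries Aurora B to the midzone, rose from 13.2 to 73.5 CPM in DKO and from 8.57 to 111 CPM in DKO-Skp2+/-. Kif23 and Racgap1, the partners of the centralspindlin complex, differed in their S to M rise, at 2.68- and 4.04-fold in DKO and 4.46- and 6.45-fold in DKO-Skp2+/-. Cep55, which brings the abscission machinery to the midbody, showed the largest rise of the group, 6.03- and 13.0-fold.

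Among the 12 spindle assembly proteins the rise ranged from 1.05-fold in Numa1 to 9.91-fold in Dlgap5 in DKO, and from 1.17- to 17.7-fold for the same genes in DKO-Skp2+/-. Dlgap5, also called HURP, stabilizes the microtubules that reach the kinetochores. Its level went from 10.4 CPM at S to 44.8 at G2 and 103 at M position in DKO, and from 7.94 to 49.9 and 141 CPM in DKO-Skp2+/-. Aspm, a spindle pole protein whose loss causes microcephaly, rose 9.42- and 15.3-fold, and Tpx2, the activator of Aurora A, 5.61- and 7.96-fold. Nusap1, which bundles microtubules near chromatin, reached its level at G2 position, at 479 and 529 CPM, and stood at 520 and 503 CPM at M position. Ckap5, a microtubule polymerase also used in interphase, stood at 37.9 and 46.9 CPM in low cells, against 28.4 CPM (12.3 to 56.0) and 25.5 CPM (11.02 to 50.3) in microglia-like cells. The low-cell levels lie within those intervals, which are wide, so they are read neither as expression nor as its absence. In DKO-Skp2+/- Ckap5 was the one member whose low cells were not the lowest of the 4 positions.

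The kinases and regulators differed in timing. Plk1, which acts in centrosome maturation, spindle assembly and cytokinesis, rose 10.1-fold from S to M position in DKO and 14.3-fold in DKO-Skp2+/-, and Aurka, the kinase of the spindle poles, 7.46- and 9.73-fold. Cdca3, a regulator of mitotic entry, rose 5.07- and 8.07-fold and was level between G2 and M position, at 950 and 951 CPM in DKO and 992 and 966 CPM in DKO-Skp2+/-. Pbk was lower at M than at G2 position in both, at 359 against 423 CPM and 390 against 453 CPM. Espl1, separase, which cuts the cohesin between sister chromatids, had few UMIs, at 25.4 and 24.3 CPM at G2 and M position in DKO and 28.8 and 28.4 CPM in DKO-Skp2+/-.

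**Figure D2:**
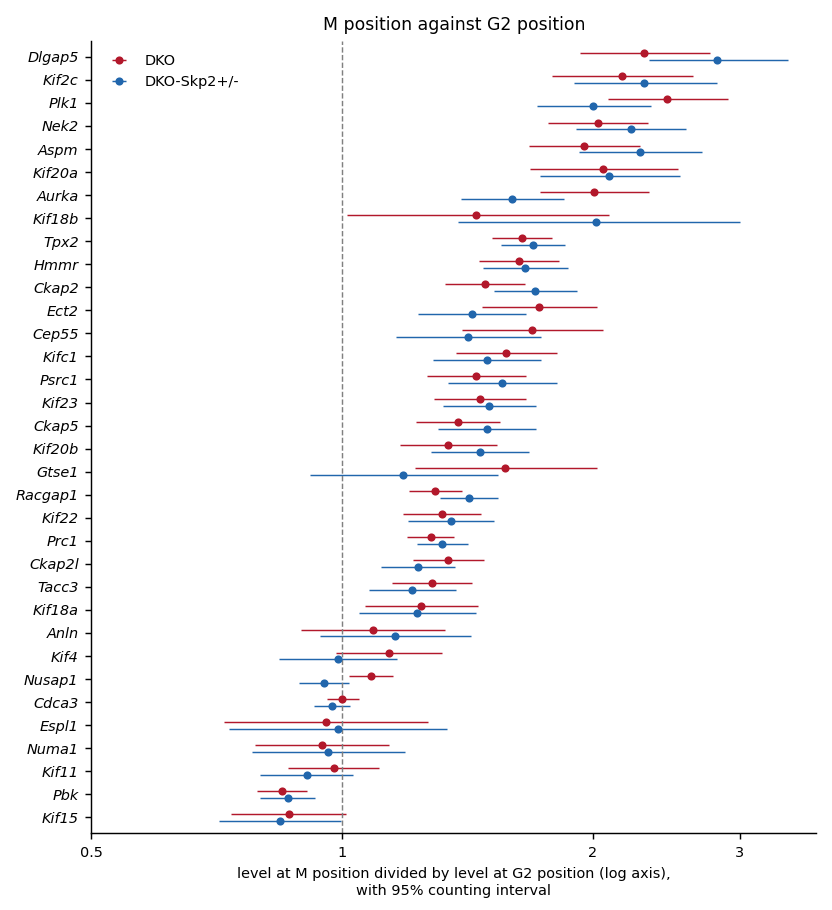
Level at M position divided by level at G2 position (log axis) for each member, in DKO (red) and DKO-Skp2+/- (blue), with 95% counting intervals and members ordered by the geometric mean of both. Dlgap5, Kif2c and Plk1 stand at the top with ratios of 2.00 to 2.82, and Kif11, Pbk and Kif15 at the bottom with ratios below 1 in both libraries.

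The order from G2 to M position was read in each library separately. In 26 of 34 members the M to G2 ratio was above 1 in both, in 5 it was below 1 in both (Espl1, Kif11, Kif15, Numa1 and Pbk), and Cdca3, Kif4 and Nusap1 lay on either side of 1. Ratios ran from 0.848 in Pbk to 2.46 in Plk1 in DKO and from 0.843 in Kif15 to 2.82 in Dlgap5 in DKO-Skp2+/-. Plk1 (2.46 and 2.00) and Aurka (2.01 and 1.60) had the smaller ratio in DKO-Skp2+/-, where their G2 level was the higher. Neighbours in this order mostly overlap in their counting intervals, as the plot of M to G2 ratios shows, so only its ends are told apart at this depth.

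Other genes of the spindle did not all share the pattern. Of 40 further spindle and cytokinesis genes, 16 in DKO and 18 in DKO-Skp2+/- rose at least 2-fold from S to M position. Bora, the activator of Aurora A, was among them (5.09-fold in DKO), while all 8 measured subunits of augmin, the complex that branches microtubules, stayed below 2-fold in both libraries, a set singled out after its values were seen. The 19 genes listed as transport kinesins with enough UMIs, such as the axonal motors of the Kif1 and Kif5 families, had 0 members at 2-fold. The sum of the list had M to S ratios of 0.921 and 0.998. In low cells that sum was 1654 and 1559 CPM, above the 1026 and 999 CPM at M position. The list is mixed: it also holds Kif2a, a relative of the member Kif2c, with M to S ratios of 0.887 and 0.951. Klc1, Klc2 and Kifap3 in it are subunits that accompany motors.

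Over all kept cells the members were lower in DKO-Skp2+/-. Their sum was 2884 CPM in DKO and 2512 CPM in DKO-Skp2+/-, a ratio of 0.871 (0.861 to 0.881), and 30 members were below and 4 above their DKO level. At least 1.2-fold lower were 8 of 34 members, against 8.24% of all genes. The median log2 ratio was -0.18 over the members and 0.03 over all genes. The 4 members above were Aurka, Kif20a, Kif20b and Plk1, of which Kif20b stood at 53.7 and 53.8 CPM. This direction did not hold in most members without the shallow cells. A floor of 3420 UMIs removed 1898 DKO-Skp2+/- cells and no DKO cell. The ratio of the sums was then 0.988 (0.977 to 1.00), with 15 members below and 19 above. The median log2 ratio was then 0.03 over the members and 0.04 over all genes. With every cell kept but thinned to 2300 UMIs, the ratio of the sums was 0.781. Most DKO-Skp2+/- cells of the progenitor-like class, described below, lie under the floor (median 3042 UMIs). Depth and cell classes thus changed together, and their parts were not tested.

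Cdca3 differed most, at 439 CPM in DKO and 334 CPM in DKO-Skp2+/- (ratio 0.762, 0.740 to 0.784). Kif4, a motor of chromosome arms and midzone, followed at 46.5 and 38.0 CPM (0.819, 0.749 to 0.895), and Tacc3, which ties spindle microtubules together, at 79.2 and 65.1 CPM (0.822, 0.768 to 0.880). At the other end, Kif20a stood at 27.0 and 28.8 CPM (1.07, 0.957 to 1.19), Aurka at 45.6 and 48.3 CPM (1.06, 0.975 to 1.15) and Plk1 at 39.7 and 41.2 CPM (1.04, 0.947 to 1.13). All 3 intervals include 1. With every cell thinned to 2300 UMIs these too were below 1, and all 34 members were lower in DKO-Skp2+/-.

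Fewer DKO-Skp2+/- cells stood at the positions where members are high. At G2 or M position were 34.7% of DKO cells (33.1 to 36.3) and 23.9% of DKO-Skp2+/- cells (22.8 to 25.1), a ratio of 0.689, or 0.871 at the common floor of UMIs. At 2300 UMIs per cell a DKO cell carried 6.59 member UMIs on average and a DKO-Skp2+/- cell 5.15, a ratio of 0.781. With the DKO-Skp2+/- cells weighted to the position shares of DKO, a comparison chosen after seeing the data, the mean was 6.54 and the ratio 0.993.

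Within a position the libraries differed in both directions. At S position the summed members stood at 1581 CPM in DKO and 1229 CPM in DKO-Skp2+/-, a ratio of 0.777 (0.761 to 0.794). At least 1.2-fold lower were 23 of 33 members counted there, against 13.8% of all genes. Cep55 had the lowest ratio, 0.519 (0.386 to 0.693), at 11.7 and 6.05 CPM, and Ckap2l stood at 58.8 and 36.2 CPM, a ratio of 0.615. Psrc1, which promotes microtubule depolymerization in the spindle, was the only one above, at 23.0 and 25.8 CPM (1.12, 0.951 to 1.33). The reference genes moved too: at S position the G2 reference sum had a ratio of 0.801 and the M reference sum 0.779. S-position cells of DKO-Skp2+/- thus held fewer late cycle transcripts of both kinds. The summed members at S position were not lower in every cluster, as the values of unnamed clusters show.

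At G2 position the sums were 4996 and 5693 CPM, a ratio of 1.14 (1.12 to 1.16), with 33 members above and Ckap5 below. At least 1.2-fold higher were 13 of 33 members, against 15.7% of all genes, and 0 of 33 were 1.2-fold lower, against 12.7%. Aurka went from 64.4 to 104 CPM (1.62, 1.36 to 1.93), Ect2, the exchange factor that starts ring assembly at the cleavage site, from 60.9 to 97.6 CPM (1.60, 1.34 to 1.92), and Plk1 from 51.1 to 80.1 CPM (1.57, 1.29 to 1.91). These 3 were the highest ratios of the 34 at this position. Here the M reference sum had a ratio of 1.15 and the G2 reference sum 1.13.

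At M position the sums were 6350 and 7299 CPM, a ratio of 1.15 (1.13 to 1.17), with 32 members above and Kif4 and Nusap1 below. At least 1.2-fold higher were 14 of 34 members, against 16.6% of all genes, and 0 of 34 were 1.2-fold lower, against 15.3%. Kif20a had the highest ratio, at 73.5 and 111 CPM (1.51, 1.31 to 1.75), followed by Kif18b at 19.2 and 27.9 CPM (1.45, 1.09 to 1.95) and Kif20b at 126 and 175 CPM (1.39, 1.245 to 1.56). Cdca3, the member most reduced over all cells, stood at 951 and 966 CPM (1.02, 0.972 to 1.06). Of the role groups, the midzone and cytokinesis genes had the highest summed ratio, 1.248 (1.21 to 1.29), and the kinases and regulators the lowest, 1.09 (1.05 to 1.12). The summed ratio of all members at M position was not above 1 in every cell class, as the values by class show.

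**Figure D3:**
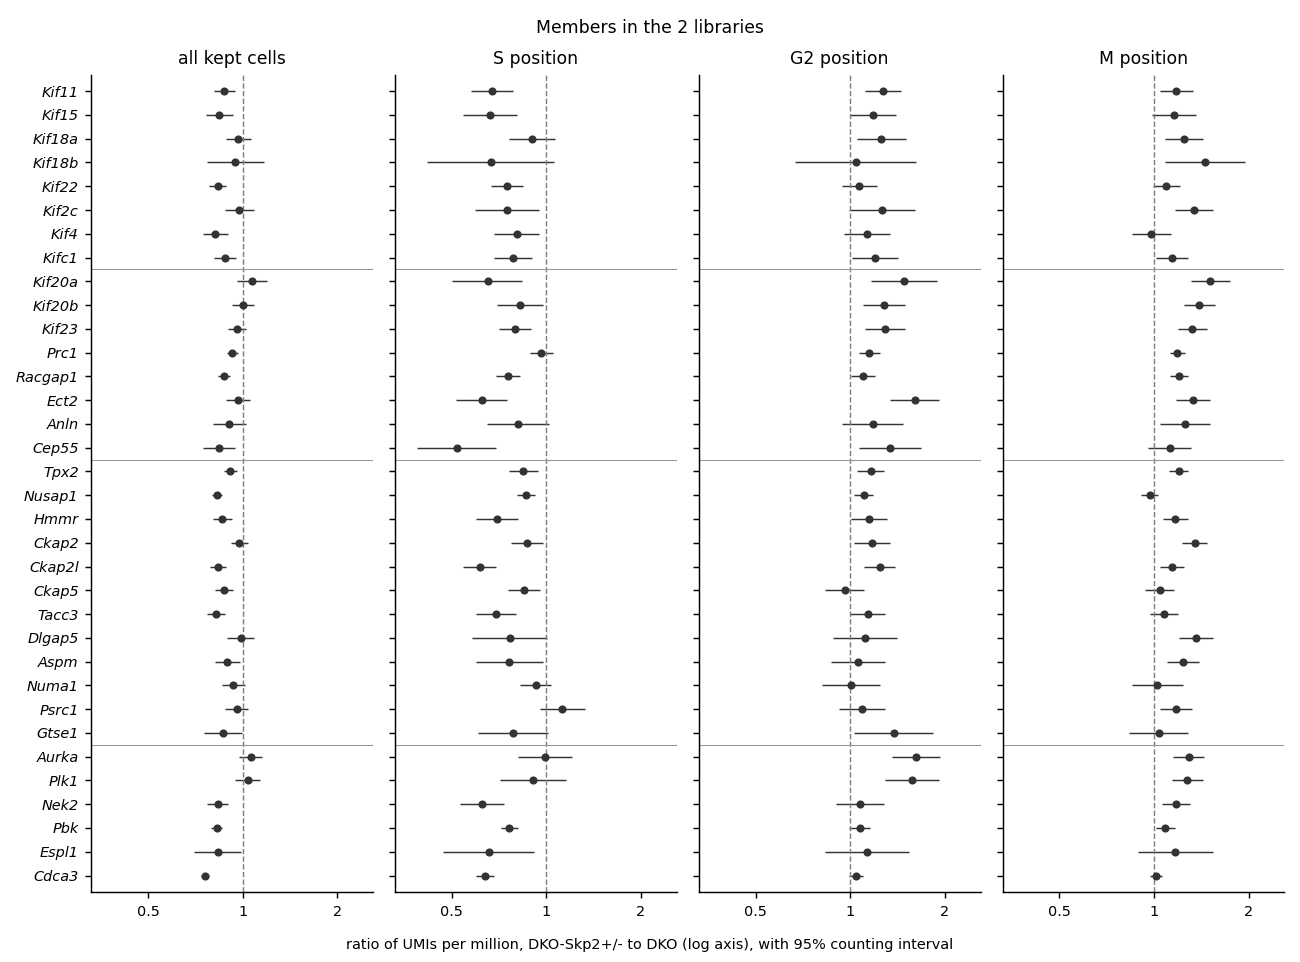
Ratio of CPM in DKO-Skp2+/- to DKO (log axis) for each member with its 95% counting interval, over all kept cells and at S, G2 and M position. The points lie mostly left of 1 over all cells and at S position, and mostly right of 1 at G2 and M position.

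At M position the M reference genes were also higher in DKO-Skp2+/- (ratio 1.197) and the S reference genes lower (0.825), so that library's M-position cells differed in reference content as well. A limit of at least 25 M reference UMIs was chosen after seeing the data. Among cells that met it the M reference ratio was 1.02. The members stood at 9207 and 9690 CPM, a ratio of 1.05 (1.03 to 1.08), with 27 members above and 7 below. The share of all genes above their DKO level was not counted in these cells. Over all M-position cells the 8 members with the highest M to G2 ratios had library ratios of 1.18 to 1.51, and the 8 with the lowest had ratios of 0.968 to 1.18. Among the cells with at least 25 M reference UMIs these ranges overlapped, at 1.06 to 1.47 and 0.836 to 1.35. Whether the difference in reference content accounts for the members' difference was not tested.

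The position of a cell depends on which 2300 of its UMIs the thinning draws. Over 20 further draws, added after seeing the data, the ratio of the summed members ran from 0.718 to 0.785 at S, from 1.09 to 1.19 at G2 and from 1.07 to 1.17 at M position, wider than the counting intervals. The direction held in all 20 draws at each position, with 32 to 34 members below at S position, and 28 to 33 above at both G2 and M position. Nusap1 stayed below 1 at M position in every draw (0.906 to 0.980), and Kif4 ran from 0.947 to 1.11. With thinned cells weighted to the DKO shares of clusters at each position, another added comparison that leaves out clusters with under 10 such cells, the ratios were 0.967 at S, 1.06 at G2 and 1.03 at M position. Thinned cells without weights gave 0.789, 1.09 and 1.04.

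Cells were grouped into 29 clusters from variable genes without the members, the reference lists, the other spindle genes or histones, and clusters were named after a cell type only by its markers. In the named classes, 9 or more markers stood above the other cells for rods (11 of 11), cones, bipolar cells, Müller glia, progenitors and microglia. For amacrine cells, immature neurons and neurogenic cells it was 8 to 10, and for astrocytes 4 or 5 of 5. Any excess was counted, and the same markers gave the names, so these counts are no separate support. In progenitor-like cells 3 of 9 markers were over 2-fold higher. Neurogenic-like cells held the members highest among the named classes, at 6904 CPM in DKO and 7390 CPM in DKO-Skp2+/- (ratio 1.07, 1.04 to 1.10). They were led by Rsph1, Pkib, Olig2 and Foxn4, of which Pkib is on the marker list of photoreceptor precursors. Of their own markers, Gadd45a stood below the other cells (30.98 against 55.25 CPM in DKO, 32.62 against 50.32 CPM in DKO-Skp2+/-). Atoh7 had no UMI in them in DKO. At G2 or M position stood 88.9% and 90.2% of neurogenic-like cells. Ccnb1 is among their leading genes, so clustering did not fully separate cell type from cell cycle. The name depends on the clustering: at resolution 1.5 it was left to 6 and 18 cells, and with cell cycle genes kept in the clustering to 5 and 19 cells, too few for a class value.

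Müller glia-like cells stood mostly at S position, 89.5% in DKO and 87.8% in DKO-Skp2+/-, with members at 867 and 755 CPM (0.871, 0.821 to 0.924). Progenitor-like cells, led by Hes5 and Sox8, were alike in this, with 89.9% and 90.6% at S position and members at 575 and 459 CPM (0.799, 0.712 to 0.898). Both classes thus carried S reference transcripts and few spindle transcripts. Most of the Müller glia-like cells, 477 of 516 and 637 of 715, came from a cluster led by Spink2 and Cox4i2. At resolution 0.5 a cluster led by the same genes, with 654 and 1376 cells, was named progenitor. Only 39 and 78 cells then kept the Müller glia name. At resolution 1.5, and with cell cycle genes in the clustering, the cluster led by Spink2 was named Müller glia. With cell cycle genes in, the cluster with Hes5 and Sox8 among its leading genes, 243 and 824 cells, received no name. That setting therefore gives no progenitor-like value. Immature neuron-like cells, led by Igfbpl1, Nhlh2 and Ebf3, held 1140 and 651 CPM (0.571, 0.536 to 0.608), with all 34 members lower in DKO-Skp2+/- and 9.83% against 4.49% of cells at G2 or M position. Those 41 and 23 cells held 1798 of the 3019 and 708 of the 1471 member UMIs of the class. Their median depth was 7371 and 5431 UMIs, against 4577 and 3566 UMIs in the class. The part of depth and doublets was not tested. The share of all genes lower within a class was not counted, here or for rod-like cells. Of the immature neuron-like cells, 293 of 417 and 320 of 512 came from a cluster led by Klhl35 and Igfbpl1. At resolution 0.5 a cluster led by these genes, with 537 and 439 cells, was named amacrine and horizontal precursor. Only 74 and 151 cells then kept the immature neuron name. In the small groups left at that resolution the ratio turned to 1.21 in Müller glia-like cells (0.856 to 1.74). In immature neuron-like cells it turned to 1.07 (0.791 to 1.46). At M position, among named classes with at least 10 cells there in each library, the ratio was 1.05 (1.01 to 1.08) in neurogenic-like cells. It was 0.673 (0.605 to 0.747) in 26 and 15 immature neuron-like cells and 0.755 (0.625 to 0.916) in 15 and 53 progenitor-like cells.

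Differentiated photoreceptor classes carried members too. Rod-like cells, led by Nr2e3 and Pdc, held 1017 CPM in DKO and 512 CPM in DKO-Skp2+/-, a ratio of 0.503 (0.458 to 0.552), with 31 members lower and Kif18b, Kif20b and Numa1 higher. At G2 or M position were 27 of 164 rod-like cells (16.5%) and 13 of 211 (6.16%). Those 27 and 13 cells held 3082 and 3928 CPM, and their median depth of 8434 and 5403 UMIs was above that of their class, 6958 and 4471 UMIs. In low rod-like cells the members stood at 294 and 236 CPM. The part of depth and of doublets left after the filter in these values was not tested.

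Cone-like cells were few, 42 in DKO and 62 in DKO-Skp2+/-, and held 1221 and 445 CPM (0.364, 0.316 to 0.419). At G2 or M position stood 6 of the DKO cones, with 541 of the 805 member UMIs of the class, and 2 of the DKO-Skp2+/- cones, with 119 of 268. The class values thus rest on few cells, with a median depth of 18975 and 13392 UMIs against 10606 and 6708 UMIs in the class. In Cdca3, the cone-like cells had 208 CPM in DKO and 34.9 CPM in DKO-Skp2+/-, and in Prc1 103 and 26.6 CPM. Bipolar-like cells held 547 and 311 CPM (0.568, 0.485 to 0.664). The DKO-Skp2+/- value lies near the 255 CPM of microglia-like cells, used as background, so the ratio of bipolar expression itself is not given by these sums. Amacrine-like cells held 930 and 666 CPM (0.717, 0.644 to 0.797). At G2 or M position stood 8 amacrine-like cells in each library, with 512 of the 969 and 248 of the 542 member UMIs of the class. Those cells held 4942 and 4726 CPM at a median depth of 14236 and 5054 UMIs, against 5376 and 4367 UMIs in the class.

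**Figure D4:**
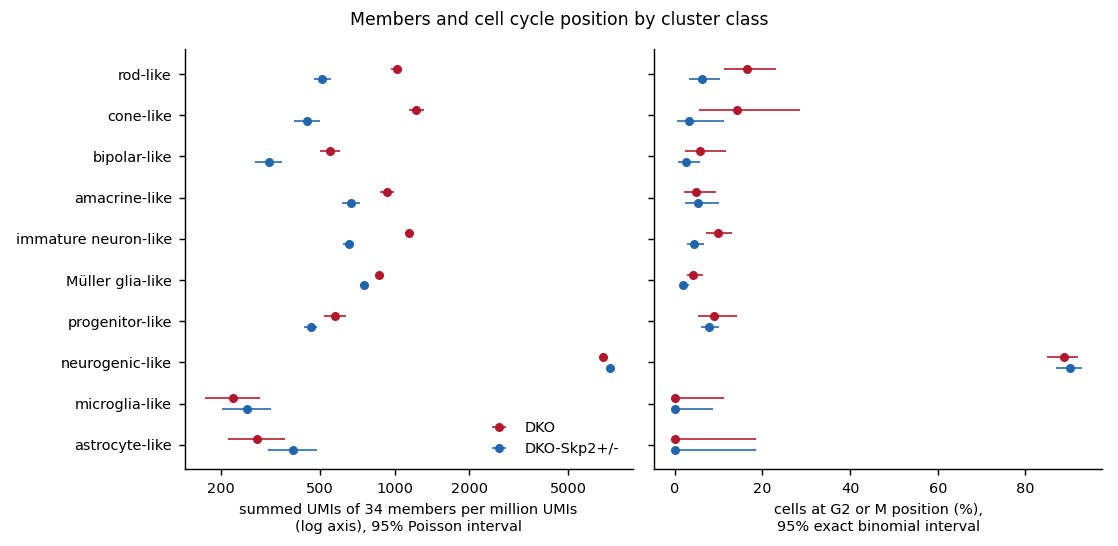
Left, summed level of the 34 members in CPM (log axis, 95% Poisson interval) in cells of each marker-named class. Right, percent of the same cells at G2 or M position (95% exact binomial interval), in DKO (red) and DKO-Skp2+/- (blue); neurogenic-like cells stand apart in both panels, and rod-, cone-, bipolar-, amacrine- and immature neuron-like cells hold fewer member UMIs in DKO-Skp2+/-.

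Microglia-like cells, with a median depth of 9247 and 7519 UMIs, served as the background for retinal transcripts, since none of them stood at G2 or M position (0 of 31 and 0 of 41, which allows shares of up to 9.68% and 7.32%). They held 224 CPM of members in DKO and 255 CPM in DKO-Skp2+/-, close to the 257 and 232 CPM of low cells, and 15 and 8 members had no UMI in them. Member levels near these values are therefore not read as expression. By the same measure 9.68% and 9.76% of microglia-like cells were called S position, so that call may hold some background. Whether these were cycling microglia was not tested.

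Several clusters that received no name were high in members. Cluster 18, with Ccnb1, Cdc20, Plk1 and Kif20a among its leading genes, held 10627 and 10835 CPM in 37 and 52 cells, all of them at M position. Cluster 1, led by Tagln2 and Rbp7, held 6382 and 6797 CPM in 510 and 480 cells. Cluster 7, led by Epha8 and Foxn4, held 4641 and 4675 CPM in 217 and 139 cells, and cluster 22, led by Txnip and Plk5, 3811 and 4755 CPM in 24 cells of each library. Cluster 10, led by Ptf1a, held 2901 and 2926 CPM in 196 and 80 cells. The ratio between libraries was 1.02 (0.970 to 1.07) in cluster 18, 1.07 (1.04 to 1.09) for cluster 1, 1.01 (0.975 to 1.04) for cluster 7, 1.248 (1.13 to 1.38) for cluster 22 and 1.01 (0.961 to 1.06) for cluster 10. In cluster 13, led by Txnip, Myc and Klf5, the members stood at 5198 and 6384 CPM (1.23, 1.18 to 1.28), at a median depth of 8130 and 5664 UMIs. Clusters 13 and 22 stood mostly at S position, with 81.25% and 80.81% of cells in cluster 13 and 83.33% and 75% in cluster 22. Their S-position cells held 4973 and 5808 CPM (1.17, 1.115 to 1.22) and 3763 and 4118 CPM (1.09, 0.969 to 1.235). Over all S-position cells the members held 1581 and 1229 CPM, a ratio of 0.777.

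Among genes outside the list, the 40 other spindle and cytokinesis genes had a summed ratio over all cells of 0.937 (0.930 to 0.943), with 27 below and 13 above. That sum is mostly 1 gene, Stmn1, with 108439 of 157259 UMIs in DKO and 102126 of 150503 in DKO-Skp2+/-, at a ratio of 0.922. The median log2 difference over the 40 genes was -0.07. The share of all genes below their DKO level was not counted. Lowest on the log2 scale were Arhgap11a at 72.7 and 56.1 CPM, Spag5, a spindle pole protein, at 52.8 and 42.6 CPM, and Iqgap3 at 14.4 and 10.96 CPM. Highest were the augmin subunit Haus8 at 28.4 and 35.4 CPM, Bora at 24.4 and 28.8 CPM, and Tacc1 at 25.2 and 29.1 CPM. Of the genes listed as transport kinesins, Kif3a, the motor of the cilium, was lowest at 42.5 and 29.7 CPM (0.699, 0.634 to 0.771), followed by Klc1 at 111 and 92.7 CPM and by Kifap3, the partner of Kif3a, at 87.2 and 73.5 CPM. Kif1c stood highest, at 6.65 and 8.65 CPM.

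Some members share sequence with other genes, and the strand used in counting is not given in the sources used here. Exons of Kif20a overlap those of Cdc23 on the opposite strand by 1271 bases, Prc1 those of Rccd1 by 911 bases and Kif4 those of Pdzd11 by 832 bases. Without strand, reads of such pairs cannot be told apart. Nek2, Tacc3, Nusap1, Numa1, Kif18a, Kif22 and Ckap2l have shorter overlaps, of 11 to 298 bases. Kifc1, a minus-end motor with M to S ratios of 3.40 and 4.94, has a near-identical neighbour, Kifc5b, which was counted at 433 and 343 UMIs, and the division of reads between them is uncertain.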

How the data were processed

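The deposited files hold UMI counts per gene and cell barcode, 1 matrix per genotype, from papain-dissociated retina and the 10x 3′ v2 kit per the labels. The counts were made with Cell Ranger 2.2.0 on mm10 per the submitters' processing notes; the barcode filter is not given in the sources used here. The matrices hold 3621 DKO and 5196 DKO-Skp2+/- barcodes with 24413761 and 25766024 UMIs.

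Barcodes with fewer than 500 genes or more than 20% mitochondrial UMIs were removed (1 and 2). A score from simulated doublets removed 105 and 216 barcodes, set at 0.8% per 1000 barcodes. UMIs were summed over the cells of a population, divided by the population's total UMIs and compared as ratios with exact 95% intervals. Log2 differences used 5 CPM added to each level. No test or p-value was computed. Shares of all genes past a fold limit used genes with at least 100 UMIs, counted in the compared cells for ratios between libraries and in all kept cells for M against S position.

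Cells were clustered with Leiden at resolution 1.0 on 2000 variable genes, 30 components and 15 neighbours. A cluster was named for the cell type with the highest mean log2 marker difference where that was at least 1.0, at least 3 markers were over 2-fold higher, and the top 10 genes held a marker of that type and more of them than of any other type. These naming limits were set after seeing the data. Also chosen then were the 50-base window, the limit of 25 M reference UMIs, the weightings by position and cluster shares, and the 20 thinning draws.

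All 34 members were to be named, and of the other spindle and transport genes the 3 with the largest log2 difference in each direction. The members and gene lists were chosen with earlier results of these data known. Protein sequences were not used here. The counting and interval code was tested on simulated data. Clusters were made with scikit-learn 1.9.0, python-igraph 0.11.9 and leidenalg 0.10.2, tables with pandas 2.3.3 and NumPy 2.4.6, intervals with SciPy 1.17.1 and plots with Matplotlib 3.10.9, under Python 3.11.15.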

Additional observations from a re-analysis of the deposited data

Results flagged for a closer look

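The ratio of the summed members between DKO-Skp2+/- and DKO lay on opposite sides of 1 at different cell cycle positions. It was 0.777 at S position, 1.14 at G2 position and 1.149 at M position. Within M position it was below 1 in immature neuron-like (0.673) and progenitor-like cells (0.755), and 1.05 in neurogenic-like cells. The difference between positions was not tested, since there is 1 library per genotype.

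The same ratio differed in direction between classes of cells. It was below 1 in Müller glia-like (0.871), progenitor-like (0.799), amacrine-like (0.717), immature neuron-like (0.571), bipolar-like (0.568), rod-like (0.503) and cone-like cells (0.364), and above 1 in neurogenic-like cells (1.07). These differences were not tested either. The bipolar-like level in DKO-Skp2+/-, 311 CPM, lies near the 255 CPM of microglia-like cells, used as background. The rod-like and cone-like values stand beside shares of cells at G2 or M position of 16.5% and 14.3% in DKO and 6.16% and 3.23% in DKO-Skp2+/-.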

How the results depend on the processing

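Of 104 alternative values, 65 moved by less than the counting interval, 36 moved by more and 3 turned direction. The cause was not tested. Some of the 65 could not move. A limit of at least 1000 genes kept the same 3515 and 4978 cells. The floor of 3420 UMIs removed no DKO cell, which left the DKO M to S ratio at 4.017. Microglia- and astrocyte-like cells had the same ratios, 1.14 and 1.393, in every clustering. For the members' sum over all cells (0.871), the ratio was 0.855 with median-of-ratios scaling, 0.781 with thinned cells and 0.988 in cells of at least 3420 UMIs. Thinned cells weighted to the position shares of DKO, which changes both choices, gave 0.993, against 0.781 without the weights. With 5 CPM added, the median log2 difference (-0.15) was -0.17 with that scaling, -0.25 thinned and -0.10 with 20 CPM added, and it turned to 0.0282 in cells of at least 3420 UMIs, where the median log2 ratio of all genes was 0.04. At S position the ratio was 0.885 in those cells, 0.718 in the lowest of 20 thinning draws and 0.967 with thinned cells weighted to the cluster shares of DKO. At G2 position it was 1.088 thinned, 1.091 and 1.191 in the lowest and highest draw and 1.055 at those cluster shares. At M position it was 1.129 both with median-of-ratios scaling and with doublets kept, 1.038 thinned, 1.191 in cells of at least 3420 UMIs, 1.074 in the lowest draw, 1.026 at the cluster shares and 1.052 with at least 25 M reference UMIs.

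The ratio of the shares of cells at G2 or M position was 0.871 in cells of at least 3420 UMIs. The M to S ratio in DKO was 5.086 thinned, 3.85 with doublets kept, 3.714 with at least 8 reference UMIs and 3.653 with positions read from 1500 UMIs. In DKO-Skp2+/- it was 6.693 thinned, 5.404 in cells of at least 3420 UMIs, 5.663 with doublets kept, 6.166 with at least 3 and 5.525 with at least 8 reference UMIs, and 5.453 from 1500 UMIs. At resolution 1.5 and with cell cycle genes in the clustering too few cells kept the neurogenic name for a value. With cell cycle genes in the clustering no cluster was named progenitor. At clustering resolution 0.5, where fewer cells kept these names, the class ratio turned to 1.212 in Müller glia-like and 1.069 in immature neuron-like cells. The depth of the DKO-Skp2+/- library limits every comparison over all cells, and few UMIs limit Kif18b and Espl1. No paired analysis was possible because each genotype has 1 library.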
